A study of Mus musculus with 160 samples.

Results

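Brown adipose tissue of DBA/2J mice was set against brown adipose tissue of the other 3 inbred strains of the study, C57BL/6J, A/J and SJL. The DBA/2J samples were the 8 brown fat libraries of the mice that the labels call DBA/2J, numbered 33 to 48, and the comparison samples were the 24 brown fat libraries of C57BL/6J, A/J and SJL mice, 8 of each strain. They are 32 of the 160 RNA-sequencing libraries of the series, whose other libraries come from liver, quadriceps and both a subcutaneous and a visceral white fat depot. All mice were males for which the labels give no engineered allele. From 12 weeks of age they ate 1 of 4 diets for 6 weeks, modelled on American, Mediterranean, vegetarian and vegan eating, with equal energy and macronutrients but different food sources. Brown fat was taken at 18 weeks, from 2 mice of each strain on each diet, so diet was balanced over strains and stood in the model as a covariate. An inbred strain is in effect 1 genotype, so each strain stands for itself.

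Brown fat is the heat-producing fat of mammals. Its cells hold many mitochondria, and the uncoupling protein Ucp1 lets protons leak through their inner membrane, so that burnt fat gives heat in place of ATP. Noradrenaline from sympathetic nerves drives this through beta-adrenergic receptors and cyclic AMP, and the tissue also holds capillaries, fibroblasts, fat cell precursors and macrophages.

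Levels below are in counts-per-million (CPM), scaled between libraries with the TMM factors of edgeR and not divided by gene length, so they compare samples and not genes. Differences are log2 of the DBA/2J level minus the mean log2 level of the other 3 strains, with their standard error (SE). A gene is called where edgeR's quasi-likelihood test gave an adjusted p under 0.05 over all 20210 genes tested. DBA/2J libraries held 19226301 to 23354410 counts, and the others 17996919 to 28346960. Of all genes tested, 3905 (19.3%) were called higher and 2904 (14.4%) lower in DBA/2J, and 1474 of them differed by over 2-fold. The median difference of all genes was 0.01. A stricter count asks that DBA/2J be called in 1 direction against each of the other strains taken singly: 1161 genes (5.74%) were higher and 621 (3.07%) lower in that sense. These 3 comparisons share the DBA/2J libraries. In 194 genes (0.96%) all 8 DBA/2J libraries lay above all 24 others, and in 82 genes (0.406%) all 8 lay below. The counts of list members below are to be read against these shares.

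The libraries carried the defining markers of brown fat. Ucp1 had 5600, 6960 and 10100 CPM as the lowest, median and highest DBA/2J library, against 2550, 7650 and 9220 CPM in the other strains. Cidea, a lipid droplet protein abundant in brown fat, had 1220, 1360 and 1910 CPM in DBA/2J and 1000, 1600 and 1910 CPM in the others. Neither was called against the mean of the other strains. Ucp1 had a log2 difference of 0.15 (SE 0.12, adjusted p = 0.395). Cidea had -0.07 (SE 0.09, adjusted p = 0.564), and the groups overlapped in both. With strains taken singly, edgeR's test called Ucp1 higher in DBA/2J than in C57BL/6J (log2 difference 0.64, adjusted p = 0.0019). The means were 7341 CPM in DBA/2J and 4842 CPM in C57BL/6J. Ucp1 was not called against A/J (-0.16, adjusted p = 0.437) or SJL (-0.04, adjusted p = 0.882). Cidea was called against no single strain.

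Some libraries also carried transcripts of other tissues. Alb, the liver's serum albumin, had 3.88, 124 and 15800 CPM in DBA/2J and 1.86, 75.0 and 17300 CPM in the other strains. The DBA/2J libraries of mice 42 (15800 CPM) and 45 (7700 CPM) stood far above the other 6, which reached 275 CPM. Cd79a, part of the B cell receptor, had 17.4 CPM in DBA/2J mouse 33 and 0.513 to 1.36 CPM in the other 7 DBA/2J libraries, against 0.386 to 12.7 CPM in the other strains. Of 21 liver markers and 18 skeletal muscle markers none was called between DBA/2J and the others. Summed, the liver markers had 46.2, 290 and 27400 CPM in DBA/2J and 39.5, 223 and 36800 CPM in the others. Of 17 B cell markers 1 was called, Ighm, with 70.4 to 235 CPM in DBA/2J and 6.45 to 117 CPM in the others. Summed, the B cell markers had 147, 221 and 558 CPM in DBA/2J and 94.7, 145 and 380 CPM in the others. The lists were therefore also counted without the 11 libraries, 3 of them DBA/2J, that exceeded 1% of the liver's mean Alb or 4 times the median Cd79a of brown fat.

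The gene with the largest named rise was Rufy4, which encodes a RUN and FYVE domain protein that acts on endosomes and lysosomes of dendritic cells. Rufy4 had 364, 548 and 941 CPM in DBA/2J, against 2.53, 3.66 and 7.80 CPM in the other strains. The lowest DBA/2J library was thus far above the highest of the 24 others. Its log2 difference was 7.18 (SE 0.14, adjusted p = 9.54e-25), and DBA/2J exceeded C57BL/6J, A/J and SJL by 6.78, 7.25 and 7.50 log2 units. Rufy4 lies on chromosome 1 at 74164695 to 74187947 on the plus strand (GRCm39). On the American diet its DBA/2J libraries had 465 and 549 CPM and the 6 other libraries 2.68 to 7.80 CPM, and on the vegan diet DBA/2J had 364 and 941 CPM and the others 2.92 to 7.53 CPM.

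**Figure D1:**
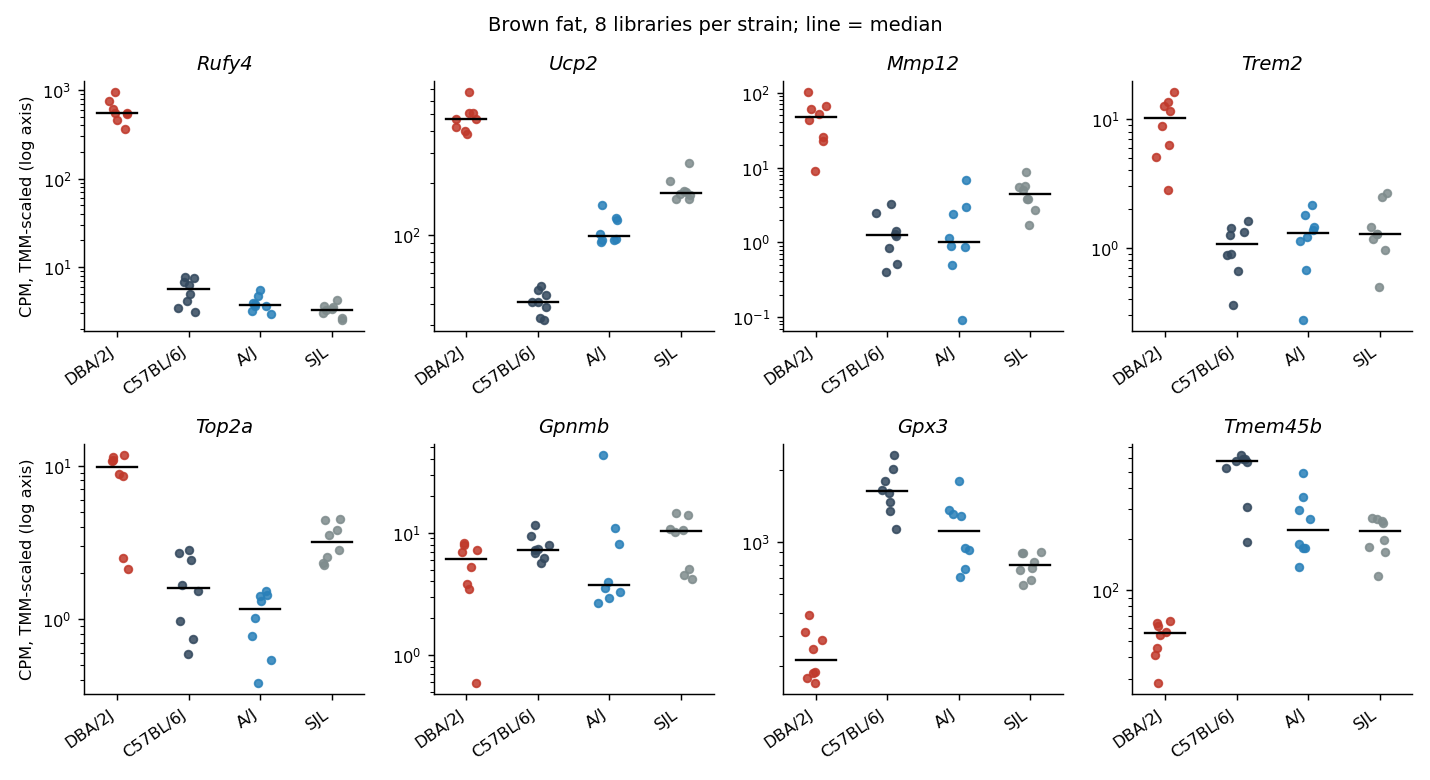
Levels of Rufy4, Ucp2, Mmp12, Trem2, Top2a, Gpnmb, Gpx3 and Tmem45b in each brown fat library, as TMM-scaled CPM on log axes, with 1 point per library, a line at each strain's median, DBA/2J at the left and the 3 other strains after it (n = 8 per strain). The 8 DBA/2J points of Rufy4 lie at 364 to 941 CPM, above all 24 points of the other strains, and those of Gpx3 at 255 to 490 CPM, below all 24.

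Among the 12 genes with the largest rises by the naming rule, 7 besides Rufy4 had all 8 DBA/2J libraries above all 24 others. Stab2, an endocytic receptor of sinusoidal endothelium that clears hyaluronan, had 20.6, 43.6 and 58.6 CPM in DBA/2J and 0.0468, 0.804 and 11.1 CPM in the others (log2 difference 5.22, SE 0.52, adjusted p = 1.32e-08). The liver expresses Stab2 too, at 53.0 ± 9.11 CPM in DBA/2J and 63.4 ± 17.0 CPM in the others (SD, n = 8 and 24). In brown fat DBA/2J mouse 39, with the lowest Alb of the strain (3.88 CPM), had 58.0 CPM of Stab2, and mouse 42, with the highest Alb, had 58.6 CPM. In the other strains the 3 highest libraries for Stab2 (11.1, 10.1 and 8.38 CPM) were the 3 highest for Alb. The Stab2 log2 difference without the 11 libraries rich in Alb or Cd79a was 6.14 (adjusted p = 6.09e-09).

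**Figure D2:**
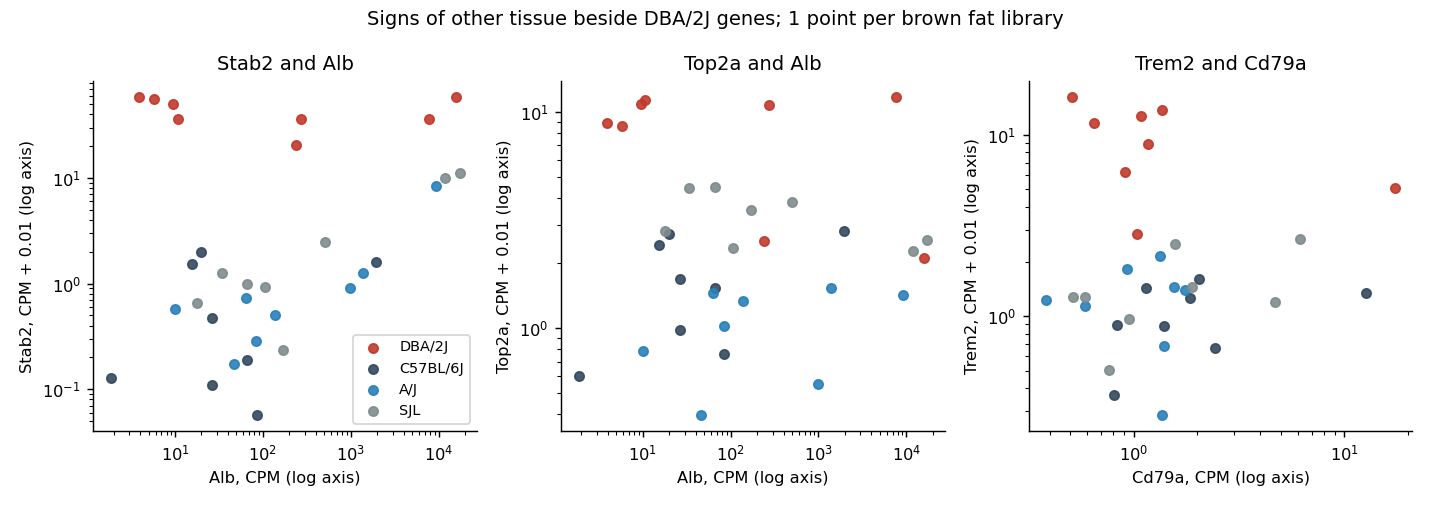
Stab2 and Top2a against Alb, and Trem2 against Cd79a, as CPM on log axes with 0.01 added to the vertical values, with 1 point per brown fat library and 1 colour per strain. DBA/2J libraries were high in Stab2 at Alb levels from 3.88 to 15800 CPM.

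Mmp12, the elastin-degrading metalloproteinase of macrophages, had 9.10, 47.2 and 101 CPM in DBA/2J and 0.0916, 2.05 and 8.64 CPM in the others (log2 difference 4.43, SE 0.40, adjusted p = 2.16e-09). Itgax, which encodes the integrin CD11c of macrophages and dendritic cells, averaged 18.7 ± 10.4 CPM in DBA/2J and 1.71 ± 1.09 CPM in the others (log2 difference 3.58, SE 0.30, adjusted p = 4.49e-10). Atp6v0d2, a proton pump subunit of osteoclasts and macrophages, averaged 6.57 ± 3.82 CPM in DBA/2J and 0.806 ± 0.552 CPM in the others (SD, n = 8 and 24 in each; log2 difference 3.13, SE 0.33). In all of these the DBA/2J library of mouse 48 was the lowest of its strain, and that of mouse 45 the highest. For Itgax and Atp6v0d2 mouse 48, at 3.36 and 0.990 CPM, fell within the range of the other strains.

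The remaining rises were of other kinds. Brinp2, a gene of neurons, averaged 11.8 ± 1.90 CPM in DBA/2J and 0.559 ± 0.433 CPM in the others (SD, n = 8 and 24, here and below for every mean ± SD of these groups). Pnpla5, a lipid droplet lipase, averaged 5.64 ± 1.23 CPM in DBA/2J and 0.307 ± 0.139 CPM in the others. Slc25a31, an ADP/ATP carrier known from testis, averaged 5.32 ± 1.36 CPM in DBA/2J and 0.305 ± 0.379 CPM in the others. In these 3 genes the DBA/2J libraries did not overlap the others, with log2 differences of 4.56, 4.19 and 5.08. Slc7a11, the cystine importer that feeds glutathione synthesis, was likewise apart, with 5.08 ± 0.993 CPM in DBA/2J and 0.947 ± 0.978 CPM in the others (log2 difference 3.20). Tmem45a and Slc15a5 were called with log2 differences of 3.60 and 3.20 and did overlap. Tmem45a was 59.9 to 92.3 CPM in DBA/2J and 13.1 to 75.1 CPM in A/J, while C57BL/6J and SJL stayed at or under 6.68 CPM. Tpm3-rs7 had 40.2 to 49.2 CPM in DBA/2J and 2.72 to 8.62 CPM in the others. It is a near copy of the tropomyosin gene Tpm3, with which reads can be shared, so its value is uncertain.

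Ucp2, a mitochondrial carrier of the uncoupling protein family that is abundant in macrophages, was among the 6 genes named for the smallest p at high level. Ucp2 had 387, 469 and 670 CPM in DBA/2J and 32.3, 98.3 and 263 CPM in the others (log2 difference 2.34, SE 0.09, adjusted p = 4.36e-18). The other strains were themselves spread, with means of 41.3 CPM in C57BL/6J, 109 CPM in A/J and 186 CPM in SJL, and DBA/2J lay above every library of each. Gprc5b, an orphan receptor, averaged 322 ± 49.4 CPM in DBA/2J and 99.3 ± 14.4 CPM in the others. Cxcl14, a chemokine that brown fat secretes, averaged 106 ± 30.1 CPM in DBA/2J and 17.7 ± 7.84 CPM in the others. Pfas, an enzyme of purine synthesis, averaged 55.8 ± 5.73 CPM in DBA/2J and 26.7 ± 3.83 CPM in the others. None of these 3 overlapped between DBA/2J and the others. Dnajc10, a disulfide reductase of the endoplasmic reticulum, was 39.2 to 52.3 CPM in DBA/2J and overlapped SJL alone, which had 39.2 to 44.4 CPM. Man2a2, a Golgi mannosidase, was lower without overlap, at 96.5 to 122 CPM in DBA/2J and 200 to 317 CPM in the others.

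The 12 largest falls include Gpx3, the secreted glutathione peroxidase. Gpx3 had 255, 317 and 490 CPM in DBA/2J and 658, 1040 and 2310 CPM in the others (log2 difference -1.74, SE 0.14, adjusted p = 1.2e-10). Tmem45b, a membrane protein gene, had 28.4, 55.5 and 65.8 CPM in DBA/2J and 121, 263 and 625 CPM in the others (log2 difference -2.54, SE 0.24, adjusted p = 4.56e-09). In both the highest DBA/2J library was below the lowest of the 24 others. Fmo1, a flavin monooxygenase, averaged 130 ± 25.6 CPM in DBA/2J and 374 ± 72.5 CPM in the others. Esr1, the estrogen receptor alpha, averaged 6.63 ± 1.83 CPM in DBA/2J and 19.3 ± 7.15 CPM in the others. Met, the receptor of hepatocyte growth factor, averaged 13.2 ± 3.73 CPM in DBA/2J and 37.8 ± 8.18 CPM in the others. None of these 3 overlapped (log2 differences -1.51, -1.51 and -1.52).

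Fggy, a carbohydrate kinase gene, had 13.7 and 10.8 CPM in DBA/2J mice 42 and 45, the libraries rich in Alb, and 2.09 to 4.24 CPM in the other 6 DBA/2J libraries, against 15.2 to 29.5 CPM in the other strains. Aqp11, an aquaporin of intracellular membranes, also had its 2 highest DBA/2J values in these libraries, 3.12 and 6.63 CPM, against 0.544 to 1.37 CPM in the other 6 and 2.87 to 47.1 CPM in the other strains. The part of liver transcripts in these values was not tested. Mgl2, a lectin of macrophages and dendritic cells, had 12.4 CPM in DBA/2J mouse 33, the library high in Cd79a, and 1.89 to 3.83 CPM in the other 7, against 4.81 to 17.5 CPM in the other strains. Fbxo44, Fgf11 and Trappc6a fell with no overlap, by 2.59, 1.58 and 1.52 log2 units. Zfp970 averaged 0.849 ± 1.11 CPM in DBA/2J and 10.8 ± 3.09 CPM in the others, and it belongs to a cluster of near-identical zinc finger genes, so its value is uncertain.

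Cell division genes had the largest share of members called higher among the lists. The cell cycle is driven by cyclins and the kinase Cdk1, and genes of its later phases are switched on together in dividing cells. Of 18 cell cycle genes tested, 17 were called higher in DBA/2J (94.4%, where 19.3% of all genes were), 15 of them against each strain, and none was lower. Their median log2 difference was 1.59, against 0.01 for all genes. Top2a, the topoisomerase that untangles replicated chromosomes, had 2.11, 9.76 and 11.7 CPM in DBA/2J and 0.386, 1.61 and 4.46 CPM in the others (log2 difference 2.19, SE 0.25, adjusted p = 4.62e-08). The DBA/2J libraries of mice 42 and 48 had 2.11 and 2.52 CPM, within the range of the others, and the other 6 lay between 8.56 and 11.7 CPM, above all 24. Birc5, the mitotic protein survivin, averaged 2.11 ± 0.856 CPM in DBA/2J and 0.497 ± 0.198 CPM in the others. Cdk1 averaged 3.01 ± 1.2 CPM in DBA/2J and 0.871 ± 0.469 CPM in the others. Mcm5, a subunit of the replicative helicase, averaged 5.63 ± 1.69 CPM in DBA/2J and 2.58 ± 0.839 CPM in the others. Mice 42 and 48 were the 2 lowest DBA/2J libraries in all 4 genes. The one member not called, Ube2c, named after its values were seen, had 24.2 to 244 CPM in DBA/2J and 10.6 to 238 CPM in the others. The same 17 members were called higher without the 11 libraries rich in Alb or Cd79a. Whether more cells of a dividing type or more RNA per cell gave these values cannot be told apart in whole tissue, and this holds for every list below.

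**Figure D3:**
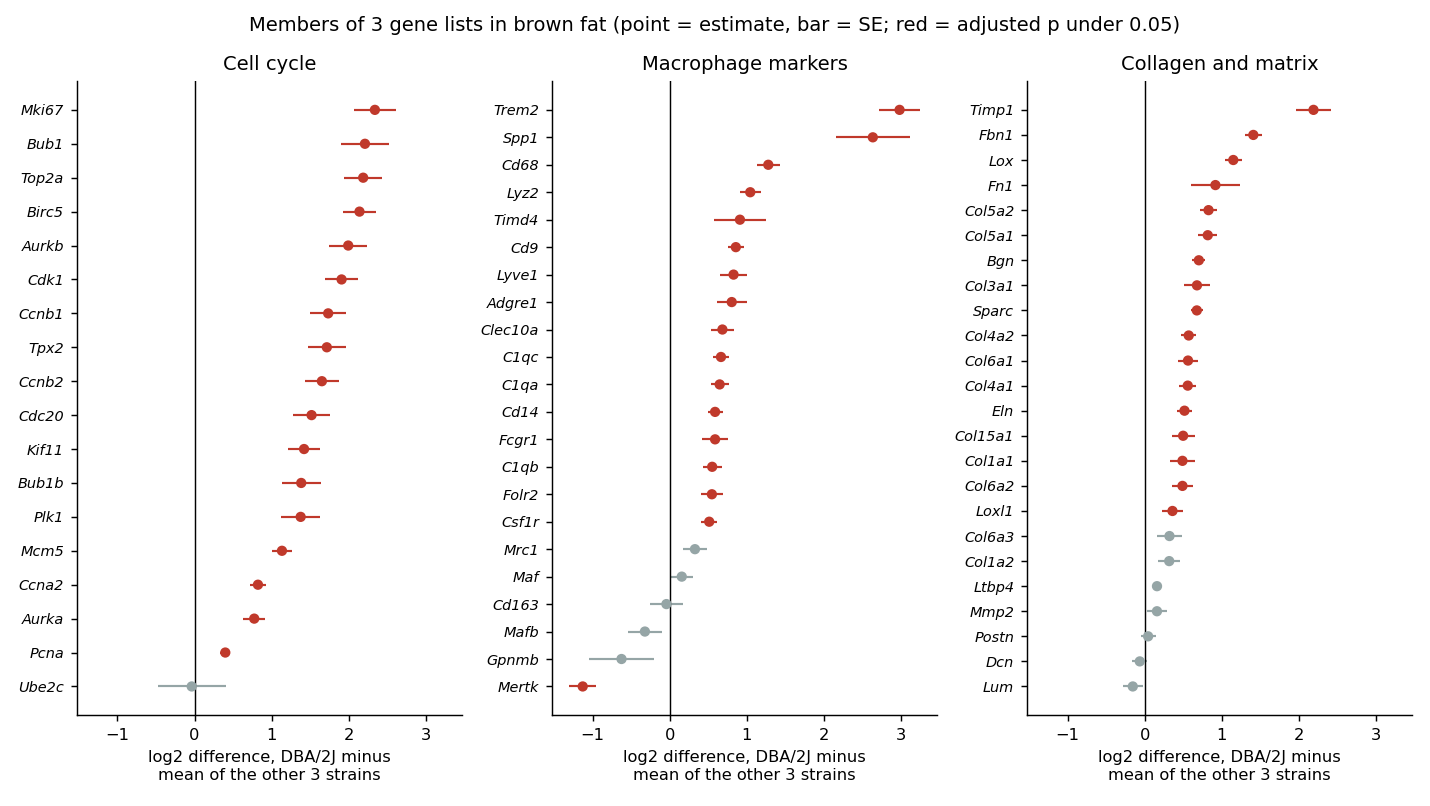
Log2 differences of DBA/2J minus the mean of the other 3 strains for the members of 3 gene lists, with bars of 1 SE, coloured by whether the adjusted p was under 0.05. All cell cycle genes but Ube2c lie right of 0, Trem2 stands at 2.98 and Mertk at -1.13 among the macrophage markers, and Timp1 at 2.19 among the matrix genes.

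Promoters of the 4 cell cycle genes named above are shown because their genes rose together and because promoters of such genes are known for a pair of short elements, the CCAAT box and the CHR element with the core TTTGAA. The sequences are RefSeq windows of 250 bases before to 50 after the gene's start, from the GRCm38.p6 assembly, a C57BL/6J genome, written 5′ to 3′ on the gene's strand. Capitals mark CCAAT and TTTGAA on either strand, so that ATTGG and TTCAAA are marked too.
Top2a, chr11:99024140-99024439, minus strand: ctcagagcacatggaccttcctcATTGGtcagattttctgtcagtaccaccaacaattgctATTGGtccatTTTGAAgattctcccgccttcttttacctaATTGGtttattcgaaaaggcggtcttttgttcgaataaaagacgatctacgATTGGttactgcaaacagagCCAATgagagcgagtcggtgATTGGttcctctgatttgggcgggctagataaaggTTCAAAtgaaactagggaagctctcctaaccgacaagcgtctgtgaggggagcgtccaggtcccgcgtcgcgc
Cdk1, chr10:69352863-69353162, minus strand: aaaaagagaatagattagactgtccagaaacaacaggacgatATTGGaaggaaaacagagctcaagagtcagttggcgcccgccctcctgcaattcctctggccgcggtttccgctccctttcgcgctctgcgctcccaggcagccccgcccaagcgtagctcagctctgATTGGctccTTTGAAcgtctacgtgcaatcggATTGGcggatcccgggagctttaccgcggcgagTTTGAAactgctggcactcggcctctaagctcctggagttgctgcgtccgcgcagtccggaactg
Mcm5, chr8:75109259-75109558, plus strand: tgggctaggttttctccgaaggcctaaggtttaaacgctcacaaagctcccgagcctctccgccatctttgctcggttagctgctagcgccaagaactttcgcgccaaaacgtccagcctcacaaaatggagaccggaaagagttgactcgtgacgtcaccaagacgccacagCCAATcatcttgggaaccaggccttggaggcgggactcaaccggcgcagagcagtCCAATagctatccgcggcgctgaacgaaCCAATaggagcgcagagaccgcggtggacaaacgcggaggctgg
Birc5, chr11:117848987-117849286, plus strand: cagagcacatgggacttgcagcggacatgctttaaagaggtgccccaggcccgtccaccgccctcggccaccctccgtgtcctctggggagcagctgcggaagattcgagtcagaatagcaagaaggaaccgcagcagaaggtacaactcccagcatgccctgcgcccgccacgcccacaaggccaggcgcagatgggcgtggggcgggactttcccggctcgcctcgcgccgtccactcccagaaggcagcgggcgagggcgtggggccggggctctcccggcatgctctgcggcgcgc
Top2a and Cdk1 hold both motifs, Mcm5 holds CCAAT alone, and Birc5 holds neither in this window. Windows were found for 15 of the 18 genes. TTTGAA was present in 10 of the 15 (66.7%) and in 4893 of 27025 windows of all genes (18.1%), and CCAAT in 14 of the 15 (93.3%) and in 10248 of all windows (37.9%). Both were present in 10 of the 15 (66.7%) and in 1925 of all windows (7.12%). Ube2c, the member not called in DBA/2J, also holds both. The shares describe the list of cell cycle genes and not the DBA/2J difference. A match describes these letters and does not show a bound site, and the DBA/2J sequence of these windows was not used here.

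Macrophage markers were the next list by share. Of 22 tested, 16 were called higher (72.7%, against 19.3% of all genes), 10 of them against each strain, and 1 was lower. Trem2, a lipid-sensing receptor of macrophages, had 2.82, 10.2 and 16.1 CPM in DBA/2J and 0.275, 1.26 and 2.66 CPM in the others (log2 difference 2.98, SE 0.26, adjusted p = 5.15e-10). Its DBA/2J libraries did not overlap the others. Cd68, a lysosomal protein of macrophages, averaged 21.4 ± 7.33 CPM in DBA/2J and 8.91 ± 2.60 CPM in the others. Lyz2, lysozyme, averaged 175 ± 58.8 CPM in DBA/2J and 86.5 ± 28.5 CPM in the others. Cd9, a tetraspanin of lipid-laden macrophages, averaged 14.6 ± 3.14 CPM in DBA/2J and 8.17 ± 2.19 CPM in the others. These 3 rose with some overlap, and mouse 48 was the lowest DBA/2J library for Trem2, Cd68 and Cd9. Mertk, a receptor for dying cells named after its values were seen, was the one that fell (log2 difference -1.13, SE 0.17, adjusted p = 7.08e-06), with 2.03 to 6.95 CPM in DBA/2J and 6.03 to 19.9 CPM in the others. Summed over the list the levels were 366, 589 and 805 CPM in DBA/2J and 210, 345 and 563 CPM in the others. Gpnmb, which lipid-laden macrophages also make and in which DBA/2J is known for an early stop codon, had 0.594, 6.08 and 8.33 CPM in DBA/2J and 2.66, 7.27 and 43.3 CPM in the others (log2 difference -0.63, SE 0.43, adjusted p = 0.281). With the 11 libraries rich in Alb or Cd79a left out, 13 markers were called higher.

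Lists of other immune cells had fewer calls in number. Of 20 T cell markers 1 was higher and 1 lower, of 11 neutrophil and mast cell markers 1 was higher and 1 lower, and of 10 NK and cytotoxic cell markers 2 were higher. Of 31 interferon-stimulated genes 7 were higher and 1 lower (22.6% higher, near the 19.3% of all genes). The higher ones numbered 3 without DBA/2J mouse 33, the library high in Cd79a, 4 without mouse 45, and 1 with the 24 other libraries taken as 1 group. Without the 11 libraries they numbered 3. Xaf1, an interferon-induced gene, had 18.0 to 26.9 CPM in DBA/2J and 5.23 to 19.2 CPM in the others. Of 13 MHC class II genes 6 were higher, and 3 with the 24 others as 1 group or without the 11 libraries. Ctss, the protease that trims the invariant chain, averaged 48.9 ± 20.5 CPM in DBA/2J and 17.3 ± 8.53 CPM in the others. Of 21 genes of MHC class I and antigen processing 8 were higher and 3 lower. The class I genes are near copies that vary in sequence between strains, so their values are uncertain.

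Matrix and fibroblast genes were higher too. Of 24 collagen and matrix genes 17 were called higher (70.8%), 8 of them against each strain, and none was lower, with a median log2 difference of 0.54. Fbn1, the fibrillin of elastic fibres, had 70.1, 101 and 110 CPM in DBA/2J and 23.5, 34.7 and 60.0 CPM in the others, with no overlap (log2 difference 1.41, SE 0.11, adjusted p = 2.47e-11). Timp1, an inhibitor of metalloproteinases, averaged 2.66 ± 1.28 CPM in DBA/2J and 0.604 ± 0.346 CPM in the others. Sparc, a collagen-binding protein, averaged 1350 ± 225 CPM in DBA/2J and 848 ± 138 CPM in the others. Lox, which cross-links collagen, had 38.3 to 65.5 CPM in DBA/2J and overlapped C57BL/6J alone, at 23.9 to 75.1 CPM. Of 16 fibroblast and adipocyte progenitor markers 11 were higher (68.8%) and none lower. Cd34, a surface protein of progenitors and endothelium, averaged 74.3 ± 10.5 CPM in DBA/2J and 39.6 ± 10.8 CPM in the others. Pi16, a marker of early progenitors, averaged 48.3 ± 11.2 CPM in DBA/2J and 23.4 ± 8.62 CPM in the others. Of 20 endothelial and mural cell markers 7 were higher and 1 lower. Pecam1, an adhesion protein of endothelium, averaged 174 ± 14.2 CPM in DBA/2J and 132 ± 12.1 CPM in the others. Without the 11 libraries rich in Alb or Cd79a 13 matrix genes, 8 progenitor markers and 3 endothelial and mural markers were called higher.

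**Figure D4:**
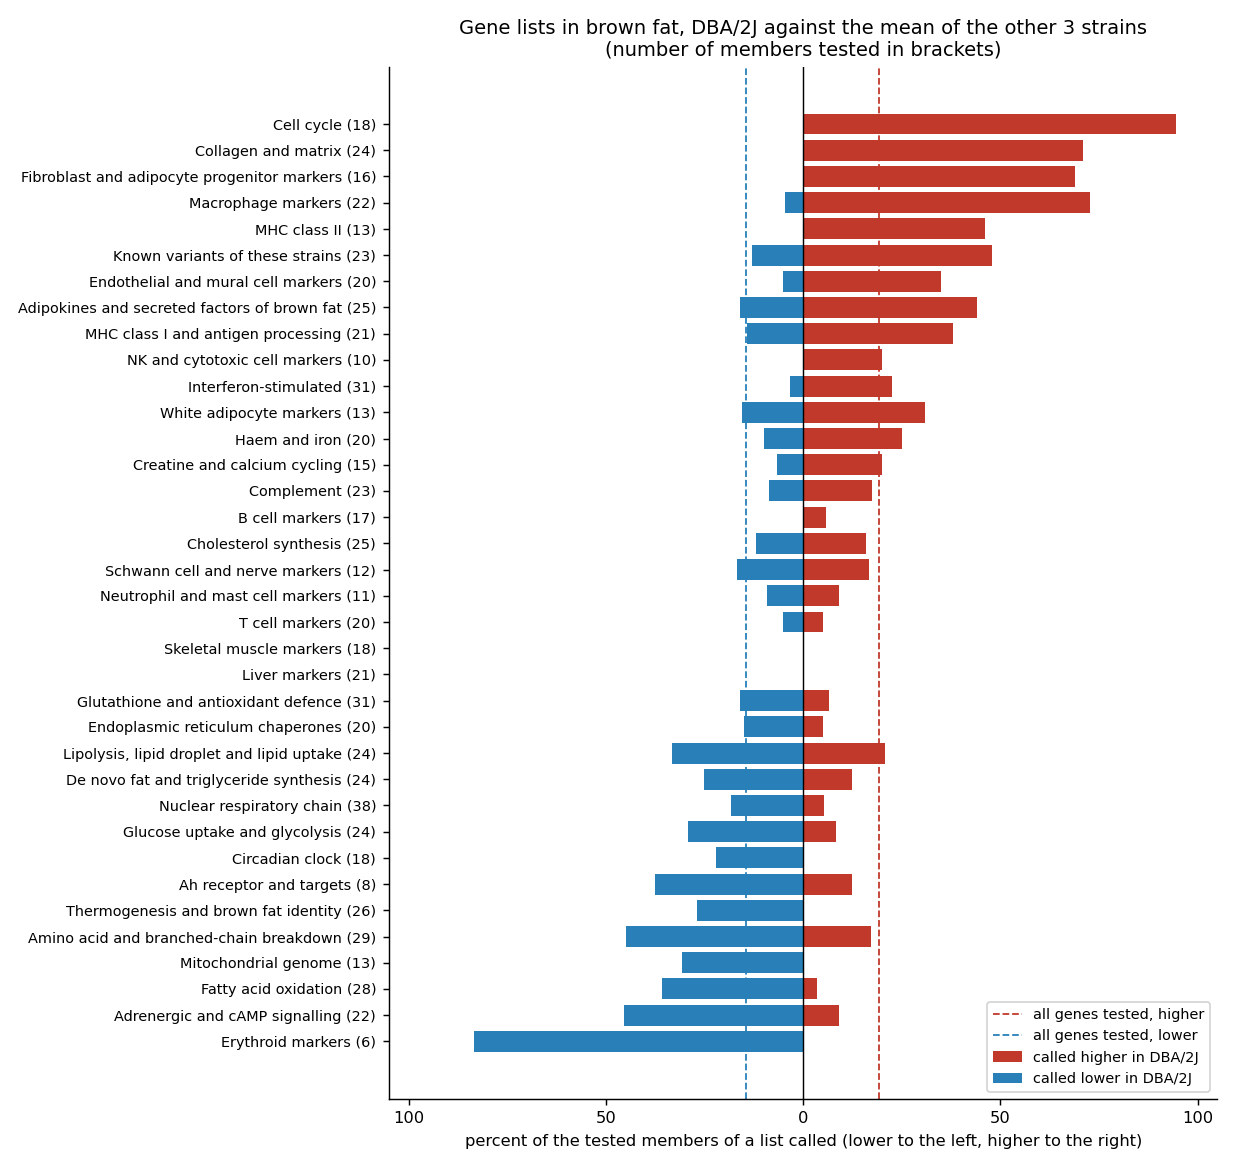
Percent of the tested members of each gene list that were called higher or lower in DBA/2J brown fat, with lines at the shares of all 20210 genes, 19.3% higher and 14.4% lower. The cell cycle, macrophage and matrix lists reach 94.4%, 72.7% and 70.8% higher, and the adrenergic list reaches 45.5% lower.

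The heat-producing programme followed none of these lists upwards. Of 26 genes of thermogenesis and brown fat identity 7 were called lower (26.9%, against 14.4% of all genes), none higher and none against each strain, and the median log2 difference was -0.08. Ppargc1b, a coactivator of mitochondrial genes, averaged 40.8 ± 6.17 CPM in DBA/2J and 66.5 ± 19.5 CPM in the others (log2 difference -0.67, SE 0.13, adjusted p = 1.18e-04). Kcnk3, a potassium channel, averaged 208 ± 49.5 CPM in DBA/2J and 334 ± 98.1 CPM in the others. Both overlapped between DBA/2J and the others. In the 21 libraries left without those rich in Alb or Cd79a 2 members were called lower. Of 22 genes of adrenergic and cyclic AMP signalling 10 were lower (45.5%) and 2 higher. Against each strain only 1 was lower and 1 higher. The largest rise of the list was that of Gprc5b, described above (log2 difference 1.70, SE 0.07, adjusted p = 9.01e-17 in edgeR's test). Pde3b, the phosphodiesterase through which insulin lowers cyclic AMP, averaged 152 ± 31.3 CPM in DBA/2J and 243 ± 52.9 CPM in the others. Adcy3, an adenylyl cyclase, averaged 66.7 ± 11.6 CPM in DBA/2J and 119 ± 60.2 CPM in the others. A/J was the highest strain for Adcy3 at 173 CPM, with 96.9 CPM in C57BL/6J and 86.7 CPM in SJL. Against SJL alone edgeR's test did not call it (log2 difference -0.39, adjusted p = 0.109). Both Pde3b and Adcy3 overlapped, and without the 11 libraries 4 members of this list were called lower.

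Fuel-burning genes were lower in part. Of 28 fatty acid oxidation genes 10 were called lower (35.7%) and 1 higher, and 5 were lower against each strain. Acaa1a, the thiolase of peroxisomes, had 56.1, 65.0 and 87.2 CPM in DBA/2J and 68.9, 121 and 154 CPM in the others (log2 difference -0.74, SE 0.06, adjusted p = 3.20e-10). A/J, at 68.9 to 91.0 CPM, was the one strain that overlapped DBA/2J. Acadl, the long-chain acyl-CoA dehydrogenase, averaged 1630 ± 215 CPM in DBA/2J and 2230 ± 275 CPM in the others. With those 11 libraries left out 7 members were called lower. Of 29 genes of amino acid breakdown 13 were lower (44.8%) and 5 higher. Glul, glutamine synthetase, averaged 667 ± 128 CPM in DBA/2J and 1210 ± 400 CPM in the others. Gpt2, the mitochondrial alanine transaminase, averaged 272 CPM in DBA/2J, 24.0 CPM in C57BL/6J, 183 CPM in A/J and 33.5 CPM in SJL. Of 38 nuclear genes of the respiratory chain 7 were lower (18.4%, against 14.4% of all genes) and 2 higher. The count of lower members rests on single libraries: it was 2 without DBA/2J mouse 45, 4 without DBA/2J mouse 39, without A/J mouse 25 or without any 1 of C57BL/6J mice 2, 7, 9 and 13, and 1 with limma on log2(TPM + 1). It was 3 with the 24 other libraries taken as 1 group and 4 without the 11 libraries rich in Alb or Cd79a. Cox7a2l, a supercomplex assembly factor, was 80.5 to 104 CPM in DBA/2J and 122 to 187 CPM in the others, without overlap. Of 13 genes of the mitochondrial genome 4 were lower (30.8%, against 14.4% of all genes), but 0 against each strain. These 4 were mt-Co1, mt-Nd4, mt-Nd5 and mt-Nd6. Against SJL alone edgeR's test called none of them lower, and it called mt-Nd5 higher in DBA/2J (log2 difference 0.33, adjusted p = 0.018).

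In lipid handling, 8 of 24 genes of lipolysis, droplets and uptake were lower, 3 of them against each strain. Another 5 were higher, none against each strain. These are 33.3% lower and 20.8% higher, where 14.4% and 19.3% of all genes were. The lower members numbered 5 without DBA/2J mouse 45 and 4 with limma on log2(TPM + 1). The higher ones numbered 2 without DBA/2J mouse 34 or 48, 3 without mouse 33, 39, 42 or 43, and 0 with the 24 other libraries taken as 1 group, but 8 with limma. Without the 11 libraries 4 were lower and 2 higher. Slc27a1, a fatty acid transporter, averaged 128 ± 18.9 CPM in DBA/2J and 242 ± 71.5 CPM in the others, with no overlap. Vldlr, the very low density lipoprotein receptor, averaged 143 ± 19.3 CPM in DBA/2J and 223 ± 38.2 CPM in the others. Of 24 genes of fat and triglyceride synthesis 6 were lower (25%), 1 of them against each strain. Another 3 were higher (12.5%), 1 of them against each strain. One of the higher, Mogat2, which makes diacylglycerol, had 7.34, 9.73 and 10.7 CPM in DBA/2J and 0.837, 1.5 and 2.22 CPM in the others, apart in every library (log2 difference 2.60, SE 0.12, adjusted p = 2.35e-16). Of 25 adipokines and secreted factors 11 were higher (44%) and 4 lower. With the 24 others as 1 group 6 were higher, and 7 without the 11 libraries rich in Alb or Cd79a. Gdf15, a stress hormone, averaged 2.92 ± 1.98 CPM in DBA/2J and 0.423 ± 0.441 CPM in the others. Lep, leptin, had 255 to 447 CPM in DBA/2J and overlapped C57BL/6J alone, at 24.4 to 391 CPM. Nampt, an enzyme of NAD synthesis, was 165 to 203 CPM in DBA/2J and 215 to 353 CPM in the others. Lep is also a white fat marker, and of 13 such markers 4 were higher and 2 lower.

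Tfrc, the transferrin receptor through which cells take up iron, had 76.2, 227 and 439 CPM in DBA/2J and 28.5, 63.7 and 102 CPM in the others (log2 difference 2.00, SE 0.20, adjusted p = 7.61e-09). The lowest DBA/2J library, the one within the range of the others, was that of mouse 48. Of 20 genes of haem and iron 5 were higher (25%, near the 19.3% of all genes) and 2 lower (10%). Against each strain only 1 was higher, and 2 were higher with the 24 others as 1 group. Erythroid markers went the other way, with 5 of 6 lower (83.3%, against 14.4% of all genes), but only 1 against each strain. Hba-a2 averaged 0.796 CPM in DBA/2J and 1.02 CPM in SJL, and edgeR's test did not call that difference (adjusted p = 0.741). Slc4a1 was near the depth limit, at 0.0487 CPM in DBA/2J and 0.268 CPM in the others. Hbb-bt, a beta globin, averaged 15.6 ± 5.26 CPM in DBA/2J and 30.4 ± 11.1 CPM in the others. Globin genes are near copies that differ between strains, so their values are uncertain.

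Of 23 tested genes known to vary between mouse strains 11 were higher (47.8%) and 3 lower (13%) in DBA/2J. Of all genes 19.3% were higher and 14.4% lower. Against each strain only 3 of the list were higher and 1 lower. With the 24 others as 1 group 7 were higher. H2-Ea, which mice of the b and s haplotypes of the major histocompatibility complex do not express, had 34.5 to 67.0 CPM in DBA/2J and 11.7 to 30.1 CPM in A/J, and medians of 0.0695 CPM in C57BL/6J and 0.0900 CPM in SJL. Single libraries of those strains reached 10.4 CPM in C57BL/6J and 16.5 CPM in SJL. Dysf, which a retrotransposon disrupts in A/J, averaged 57.8 CPM in DBA/2J, 50.2 CPM in C57BL/6J, 8.26 CPM in A/J and 57.5 CPM in SJL. Ifi202b, an interferon-inducible gene with low expression in C57BL/6J, had 5.15 to 14.8 CPM in DBA/2J and 0 to 4.71 CPM in the others. Klrd1, a receptor subunit of NK cells that DBA/2J is known to lack, was near the depth limit in brown fat, with 0 to 1.45 CPM in DBA/2J and 0 to 0.938 CPM in the others (log2 difference -0.38, adjusted p = 0.687). It was called lower in DBA/2J in each of the other 4 tissues, with 1.14 ± 0.159 CPM in DBA/2J and 11.9 ± 4.10 CPM in the others in subcutaneous fat. Gpnmb, not called in brown fat, was also called lower in DBA/2J in each of the other 4 tissues, with 5.68 ± 2.96 CPM in DBA/2J and 57.1 ± 41.8 CPM in the others in subcutaneous fat.

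Of 15074 protein-coding genes tested 9.67% were called in 1 direction against each strain. How many runs of neighbours this share would give was not worked out. With tested genes of other types passed over, such called genes formed 27 runs of at least 3 neighbours with 1 direction. Several hold immune genes: chemokines on chromosome 11 (Ccl9, Ccl6, Ccl3 and Ccl4 at 83463745 to 83555509, GRCm39), integrins on chromosome 7 (Itgam, Itgax and Itgad within 127661808 to 127822988), and Ncf4, Csf2rb2 and Csf2rb on chromosome 15 at 78128982 to 78238047. Ccl6 averaged 25.6 CPM in DBA/2J and 10.2 CPM in the others (log2 difference 1.39, SE 0.14). The hydrogen peroxide-making oxidases Duox2 and Duox1 and the maturation factor Duoxa1 lie on chromosome 2 at 122109728 to 122178453, with log2 differences of 2.66, 2.42 and 1.99. Snrpn and Snurf, read from the paternal chromosome as 1 transcript, lie on chromosome 7 within 59623897 to 59820763 and differed by 1.19 and 1.22. The genes named in this paragraph were chosen after their values were seen.

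In the model with all 16 combinations of strain and diet, edgeR's quasi-likelihood test of equal DBA/2J differences on the 4 diets called 0 of 20210 genes (0%), with 652 genes at an unadjusted p under 0.05, and DESeq2's likelihood ratio test called 13. The 4 genes with the smallest p were Lgr6, mt-Tr, Gm8730 and Entpd4, each with an adjusted p of 1. Each diet had 2 DBA/2J libraries. For Mmp12 the DBA/2J libraries had 22.9 and 61.2 CPM with American food, 43.1 and 51.4 CPM with Mediterranean, 25.8 and 67.1 CPM with vegetarian and 9.10 and 101 CPM with vegan food, against at most 8.64 CPM in any library of the others.

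The same contrast was taken in the other 4 tissues, and the brown fat difference minus their mean was tested over all 160 libraries. That test called 1945 of 23332 genes above 0 (8.34%) and 889 below 0 (3.81%). Of the 12 largest rises in brown fat 8 were called above 0, and of the 12 largest falls 8 were called below 0. These genes had been chosen for the size of their brown fat difference, which itself favours such calls. The 2 counts are therefore not independent evidence and cannot be read against the shares of all genes. Rufy4 was called higher in DBA/2J in each tissue, with 117 ± 17.9 CPM in visceral fat of DBA/2J against 7.97 ± 5.27 CPM in the others, and 3.70 ± 2.56 CPM in liver of DBA/2J against 0.611 ± 0.428 CPM in the others. Its brown fat difference exceeded the mean of the other tissues by 3.9 log2 units (SE 0.38, adjusted p = 3.88e-15). Ucp2 exceeded it by 1.87 (SE 0.13, adjusted p = 1.57e-23). Ucp2 was itself higher in DBA/2J visceral fat, at 790 ± 125 CPM in DBA/2J and 425 ± 178 CPM in the others (log2 difference 0.99, adjusted p = 9.57e-07), and in subcutaneous fat it averaged 510 ± 77.5 CPM in DBA/2J and 408 ± 85.6 CPM in the others (log2 difference 0.34, adjusted p = 0.00498). Slc7a11, Tpm3-rs7 and Brinp2 did not pass this test (adjusted p = 0.165, 0.102 and 0.79), and Slc25a31 got no standard error in this fit.

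**Figure D5:**
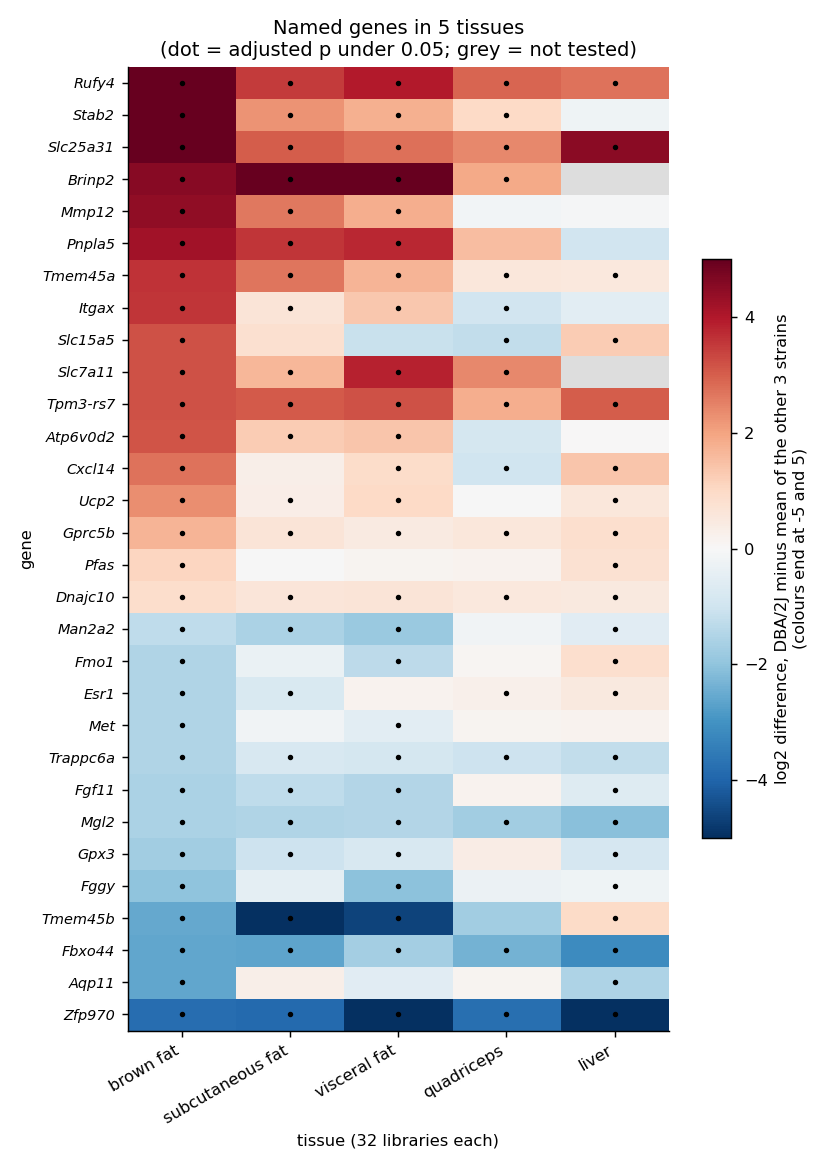
Log2 differences of DBA/2J minus the mean of the other 3 strains for the named genes, in brown fat and in the 4 other tissues (32 libraries per tissue), as colours that end at -5 and 5, with a dot where the adjusted p was under 0.05. Rufy4 is higher in all 5 tissues, and Esr1 is lower in brown fat (-1.51) and subcutaneous fat (-0.75) and higher in liver (0.50).

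Esr1 was called higher in DBA/2J liver (log2 difference 0.50, adjusted p = 0.00146) and quadriceps (0.25, adjusted p = 0.02) and lower in DBA/2J subcutaneous fat (-0.75, adjusted p = 5.90e-05). Its brown fat difference lay below the mean of the other tissues (log2 difference -1.57, SE 0.17, adjusted p = 4.10e-13). Tmem45b fell further in subcutaneous fat, at 7.84 ± 5.21 CPM in DBA/2J against 309 ± 141 CPM in the others. Cell cycle genes had 15 of 18 called higher in visceral fat, none called in subcutaneous fat, 3 higher in liver and 10 lower in quadriceps. Macrophage markers had 9 higher and 2 lower in visceral fat, and 2 higher and 10 lower in subcutaneous fat. Matrix genes had 17 higher in subcutaneous and 20 in visceral fat, of 24, but 6 lower and 1 higher in liver and 6 lower and none higher in quadriceps. Top2a differed by 2.21 log2 units more in brown fat than in the mean of the other tissues (SE 0.26, adjusted p = 1.2e-11), Trem2 by 2.54 (SE 0.31, adjusted p = 1.34e-10) and Tfrc by 1.78 (SE 0.17, adjusted p = 3.88e-15). Without visceral fat these 3 values were 2.58, 2.83 and 1.70. The mean hides tissues that went both ways. Taken singly, Top2a differed by 0.98 in visceral fat, -0.27 in subcutaneous fat, 0.20 in liver and -1.01 in quadriceps. In the same order Trem2 differed by 1.22, 1.10, 0.29 and -0.90, and Tfrc by -0.12, -0.01, 0.67 and 0.31.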

How the data were processed

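Poly(A) RNA was sequenced from stranded libraries. Per the labels and the submitters' processing notes, reads were trimmed with Trim Galore, aligned to GRCm39 with HISAT2, with a relaxed mismatch penalty for strains other than C57BL/6J, and counted with HTSeq. The deposited table holds estimated counts of 56980 genes, of which 74.4% of values above 0 are whole within 1e-06, so they were rounded. The authors' TPM values served as an alternative, as log2(TPM + 1) with limma. From the counts of 32 brown fat libraries, edgeR 4.0.16 (R 4.3.3) fitted strain and diet with TMM factors, filterByExpr (minimum count 10, total 15), robust quasi-likelihood tests and Benjamini-Hochberg adjustment. The procedure was tested on simulated counts. They had no tie between tissues of 1 mouse and no transcripts mixed in from other tissues, so such effects were not tested there. The labels number mice across tissues, which pairs samples of 1 mouse: deviations from group means correlated with the same mouse's brown fat at a median r of 0.0324 in liver, 0.0937 in quadriceps, -0.0512 in subcutaneous and 0.284 in visceral fat. Mice are separate animals. Named were the 12 largest rises and 12 largest falls called against each strain at 5 CPM or more, 6 genes of smallest p at 20 CPM or more, and leading members of each list. Members and lists were chosen with earlier results of these data known. Gene positions are from GENCODE (GRCm39), promoters from RefSeq (GRCm38.p6). Alternatives were DESeq2 1.42.0, RLE factors, no filter, Alb or Cd79a as covariates, and leaving out libraries. Each SE is the size of the log2 difference over the root of the test's F, and rests on the spread between mice.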

Additional observations from a re-analysis of the deposited data

Results flagged for a closer look

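In each strain's 8 brown fat libraries, 34 named genes were tested for a library that stands apart from the rest by Dixon's ratio. Chance passes its limit in about 1 of 20 groups where values are normally distributed. The ratio was taken on CPM without a log, so that rate may not hold here. Of 136 groups 21 had one, 5 of them in DBA/2J. In DBA/2J these were mouse 45 for Aqp11 (6.63 CPM against 0.544 to 3.12 CPM in the other 7 mice), mouse 33 for Mgl2 (12.4 CPM against 1.89 to 3.83 CPM) and for Cd79a (17.4 CPM against 0.513 to 1.36 CPM), mouse 39 for Trappc6a (5.31 CPM against 7.09 to 8.08 CPM) and mouse 38 for Ucp2 (670 CPM against 387 to 512 CPM). In C57BL/6J they were mouse 1 for Slc7a11 (1.21 CPM against 0 to 0.450 CPM), Fbxo44 (11.6 CPM against 15.1 to 18.0 CPM) and Cd79a (12.7 CPM against 0.806 to 2.43 CPM), mouse 2 for Tmem45a (4.40 CPM against 0.667 to 1.34 CPM) and mouse 16 for Alb (1950 CPM against 1.86 to 85 CPM). In A/J they were mouse 17 for Stab2 (8.38 CPM against 0.165 to 1.26 CPM) and Alb (9230 CPM against 10.1 to 1370 CPM), mouse 18 for Slc25a31 (0.299 CPM, with 0 in the other 7), Trappc6a (34.3 CPM against 17.9 to 22.0 CPM) and Man2a2 (200 CPM against 282 to 317 CPM), mouse 30 for Mmp12 (6.77 CPM against 0.0916 to 2.99 CPM) and Itgax (4.20 CPM against 0.366 to 1.44 CPM), and mouse 27 for Dnajc10 (16.0 CPM against 12.6 to 14.1 CPM). In SJL they were mouse 57 for Zfp970 (13.8 CPM against 8.73 to 10 CPM), mouse 50 for Ucp2 (263 CPM against 161 to 205 CPM) and mouse 49 for Ucp1 (5060 CPM against 7430 to 8840 CPM).

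In edgeR's test of the brown fat difference against the mean of the other 4 tissues, 8 of the 12 largest rises and 8 of the 12 largest falls were called in the same direction. The 4 of each with the smallest p are given here. The rises and falls had been chosen for their size in brown fat, which itself favours such calls. The difference was larger for Rufy4 (by 3.9 log2 units), Stab2 (3.98), Itgax (3.43) and Tmem45a (2.24). It lay below for Aqp11 (-2.18), Esr1 (-1.57), Met (-1.43) and Fmo1 (-1.33). Taken singly, Itgax differed by 1.36 in visceral fat, 0.65 in subcutaneous fat, -0.51 in liver and -0.97 in quadriceps.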

How the results depend on the processing

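The count of genes called in DBA/2J was 6809, and 6078 to 7379 when each library was left out in turn. Against single strains the ranges were 5095 to 6326 for C57BL/6J (5648 with all), 6787 to 7629 for A/J (7436) and 4781 to 5768 for SJL (5166). Against each strain they were 995 to 1215 higher (1161) and 522 to 772 lower (621). No named gene that was called in the main fit or in the altered setting reversed its direction, but some calls were lost. Changes of sign in genes called in neither fit were not counted. Taking each gene in each fit that left out 1 library, 45 results lost their call, 9 gained a call and 5418 kept their status. In the other settings 79 lost their call, 6 gained a call and 1953 kept their status. Without the 11 libraries over 1% of liver Alb or 4 times the median Cd79a, a setting chosen after seeing the data that keeps 21 libraries, 3403 genes were called against SJL, 634 were higher and 352 lower against each strain. Without the 8 libraries over 1% of liver Alb 407 were lower against each strain, and limma on log2(TPM + 1) gave 260. The diet difference had 0 calls, and 13 with DESeq2. With the mouse as replicate block, which pairs the tissues of 1 mouse, the tissue difference had 2989 calls against 2834, and the block ended none of the 8 calls given above. The causes of these shifts were not tested. Depth limits the lowest levels named, since 3 counts, the limit that a count of 0 allows, are 0.106 to 0.167 CPM.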
